A study of Mus musculus with 4 samples.

Results

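The 10 genes described here mark amacrine and horizontal cells, the interneurons of the retina. They were taken from a fixed list (Gad1, Gad2, Slc6a9, Slc32a1, Tfap2b, Chat, Calb1, Calb2, Lhx1 and Onecut1), and each was followed through the probe set that the array annotation gives to it alone. All 10 had 1 such probe set, out of 19938 genes that had one and 28944 probe sets in all. The arrays were hybridised with RNA of lens epithelia from 8-week-old C57BL/6 male mice, isolated 24 h after irradiation. UVB-irradiated epithelia came from right eyes exposed to 30 mJ/cm2 under anesthesia, and control epithelia came from left eyes of the same mice, covered with aluminum foil. Each of 2 independent experiments gave 1 UVB and 1 control array, so that each group had 2 arrays. The methods give 3 mice per animal experiment, and no source used here says whether RNA was pooled on an array.

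Amacrine cells lie in the inner retina, release GABA or glycine, and shape the signals that bipolar cells pass to ganglion cells. Horizontal cells lie beneath the photoreceptors and feed inhibition back onto them. Neither cell type belongs to the lens, and the methods describe the removal of other tissues during dissection. The list is therefore read here as a set of retinal genes measured in a preparation of another tissue. Several of its genes are also used outside the retina, so that a signal does not by itself name these cells. In bulk RNA, a different number of cells of a type and a different amount of RNA per cell cannot be told apart.

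Signals were log2 values normalized by the authors, with array medians between 7.19 and 7.22. For 100% of probe sets, experiments 1 and 2 had the same summed signal within 0.02, so that they had been set to a common level before deposit. Differences between the experiments in the level of a gene are thus lost, and a UVB signal that is high in 1 experiment has a control signal that is low in it. This also makes the spread within a group too small in a fit that ignores the experiment, and a limma fit that pairs the eyes by taking the experiment as a block is given beside it. With 2 arrays a group, an exact permutation test of a single gene cannot reach a p under 0.333. Markers of the lens epithelium were high on all arrays. Cryaa, the αA-crystallin gene, had signals of 13.82 and 13.82 in UVB and of 13.77 and 13.78 in control epithelia. The 13 measured lens epithelium genes ranged between 9.49 and 13.82 in UVB and between 9.51 and 13.78 in control epithelia. Of 20 photoreceptor genes, 17 had control signals above the array median, which is a position and no detection call.

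Signals of 7 of the 10 amacrine and horizontal cell genes lay below the array median in control epithelia. Slc6a9 stood at the 89th to 94th percentile of the 4 arrays, and the other genes between the 20th and the 60th. Probe sets differ in how strongly they hybridise, so that these positions do not rank the genes by RNA amount, and the files hold no detection call. Over the 10 genes, the median log2 difference of UVB minus control was 0.14, with 0.13 in experiment 1 and 0.09 in experiment 2. The median of all probe sets was −0.02. In both experiments, 7 genes were higher in UVB epithelia, 1 was lower and 2 changed sign. Because of the common level of the experiments, these are also the genes whose groups do not overlap. Of all probe sets, 24% were higher in both experiments and 37.4% lower. In limma, 2 of the 10 passed an adjusted p of 0.05 as higher (6.62% of all probe sets) and 0 as lower (11% of all probe sets). The 2 were Tfap2b and Onecut1. With the experiment as a block, 0 of the 10 and 0% of all probe sets were called, and 2 of the 10 had an unadjusted p under 0.05, as had 13.4% of all probe sets. None of the 10 exceeded 1.8-fold at an unadjusted p of 0.01, the thresholds of the study, which 0.111% of all probe sets passed as higher.

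**Figure D1:**
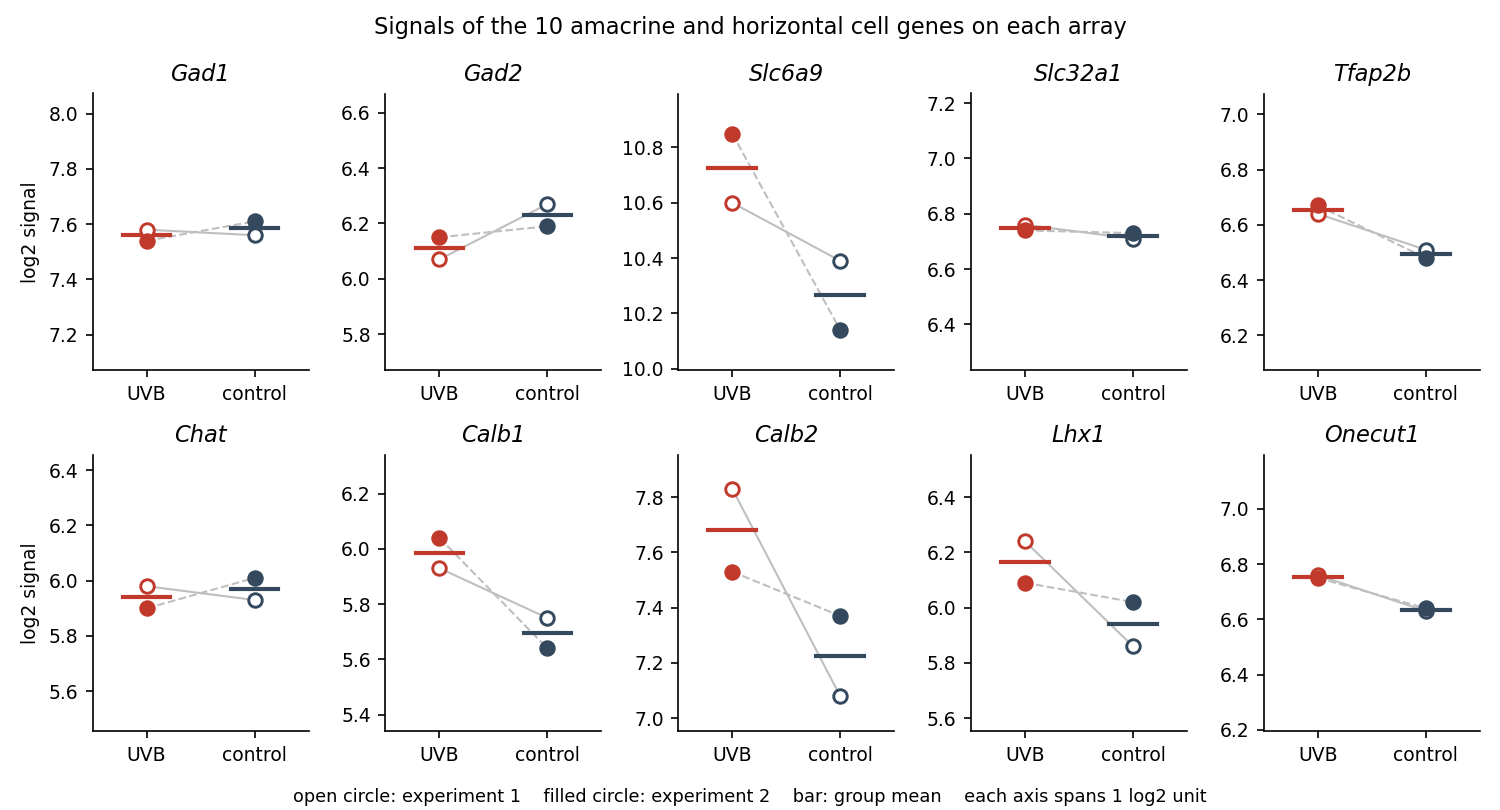
Log2 signal of each gene in UVB-irradiated and control lens epithelia, with experiment 1 as open and experiment 2 as filled circles, lines joining the eyes of an experiment and bars at the group means (n = 2 arrays each). Every axis spans 1 log2 unit. Slc6a9 and Calb2 show the widest gaps between the group means, and in Gad1 and Chat the lines of the experiments slope in opposite directions.

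Neither gene of GABA synthesis was called in either direction. Gad1 and Gad2 encode the glutamate decarboxylases that make GABA, which many amacrine cells and, in the mouse, horizontal cells use. Gad1 had log2 signals of 7.58 and 7.54 in UVB and of 7.56 and 7.61 in control epithelia of experiments 1 and 2. The groups overlap, and all 4 signals lie within 0.1 of each other. Its log2 difference was −0.025 (standard error 0.028, limma's adjusted p = 0.564), with a 95% interval of −0.188 to 0.138 in the fit with the block. Gad2 had signals of 6.07 and 6.15 in UVB epithelia, against 6.27 and 6.19 in control epithelia. Both UVB signals were below both control signals, and Gad2 was the single gene of the 10 that was lower in each experiment. The eyes differed by −0.20 in experiment 1 and by −0.04 in experiment 2. The mean log2 difference of −0.12 (standard error 0.0482) was not called (adjusted p = 0.193).

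Slc32a1 encodes the vesicular transporter that loads both GABA and glycine, so that it marks inhibitory neurons of either kind. Its signals were 6.76 and 6.74 in UVB and 6.71 and 6.73 in control epithelia. The groups did not overlap, but they lay 0.03 apart on the log2 scale (standard error 0.0143, adjusted p = 0.244). With the block the 95% interval ran from −0.0913 to 0.151. Gad1, Gad2 and Slc32a1, which together mark neurons that release GABA, thus had mean differences between −0.12 and 0.03.

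Slc6a9 showed the largest mean difference of the 10 genes. It encodes the plasma membrane glycine transporter GlyT1, a marker of glycinergic amacrine cells in the retina that glia use in other parts of the nervous system. Its log2 signals were 10.60 and 10.85 in UVB epithelia and 10.39 and 10.14 in control epithelia. Both UVB signals were above both control signals, and the gap was wider in experiment 2 (0.71) than in experiment 1 (0.21). The mean signal was 10.73 ± 0.177 in UVB and 10.27 ± 0.177 in control epithelia (SD, n = 2 each), a log2 difference of 0.46 or 1.38-fold. Slc6a9 was not called, with an adjusted p of 0.145 in limma and 0.389 with the block, where the 95% interval was −0.223 to 1.14. Some markers of other cells were likewise higher in both experiments and by more in experiment 2. Among them were 19 of 20 photoreceptor, 7 of 12 ciliary body and iris and 5 of 10 Müller glia genes. So were 5 of 14 pigment epithelium, 4 of 13 bipolar and 2 of 14 ganglion cell genes. Of these last 3 lists, 8, 3 and 7 genes were higher in both and by more in experiment 1. Of all probe sets, 24% were higher in both experiments, and the share wider in either experiment was not computed. Of the ciliary body and iris genes, 3 were lower in both experiments. With its sign counted, the difference was higher in experiment 2 for 11 of these 12 genes and in experiment 1 for 1. For the Müller glia genes the counts were 8 and 2. The Müller glia genes ranged between 6.84 and 12.68 in UVB and between 6.62 and 12.69 in control epithelia. Signals of the ciliary body and iris list lay between 6.94 and 10.55 in UVB and between 6.84 and 10.75 in control epithelia, and those of photoreceptor genes between 7.51 and 12.63 in UVB and between 6.89 and 11.71 in control epithelia. Zic2, a transcription factor of the ciliary body list, differed by 0.23 and 0.73 in experiments 1 and 2, and Apoe, a lipid carrier made by glia, by 0.22 and 0.72. Rlbp1, a retinoid-binding protein of Müller glia and pigment epithelium and the widest difference of the Müller glia list, had the larger one in experiment 1 (0.77, and 0.64 in experiment 2). The part of these cells in the Slc6a9 signal was not tested.

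Both calcium-binding proteins were higher after UVB in each experiment, but neither was called. Calb1 encodes calbindin, the usual marker of horizontal cells, and Calb2 calretinin, which marks amacrine and ganglion cells. Calb1 had log2 signals of 5.93 and 6.04 in UVB epithelia, against 5.75 and 5.64 in control epithelia. The groups were separate, at signals in the lowest 27% of each array. The eyes differed by 0.18 in experiment 1 and by 0.40 in experiment 2. The mean log2 difference of 0.29 (standard error 0.0658) missed the threshold (adjusted p = 0.0851, and 0.357 when blocked).

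Calb2 had signals of 7.83 and 7.53 in UVB epithelia and of 7.08 and 7.37 in control epithelia. Here the wider gap was in experiment 1, at 0.75, against 0.16 in experiment 2. The mean log2 difference of 0.455 (standard error 0.176) was close to that of Slc6a9, and so was its error (adjusted p = 0.184). With the block the 95% interval was −0.348 to 1.26. Of 10 cornea and conjunctiva genes, 1 was likewise higher in both experiments and by more in experiment 1, and 4 were lower in both, with signals between 6.32 and 12.88 in UVB and between 5.99 and 12.85 in control epithelia. The 1 was Krt12, a keratin of the corneal epithelium, which differed by 0.86 in experiment 1 and by 0.04 in experiment 2. Muc4, a membrane mucin with the widest difference of that list, was lower in both, at −0.18 and −0.96. With its sign counted, the difference was higher in experiment 1 for 8 of these 10 genes and in experiment 2 for 0. Their median differences were 0.145 in experiment 1 and −0.16 in experiment 2. Of 14 ganglion cell genes, 7 were higher in both experiments and by more in experiment 1, and 2 by more in experiment 2. Their signals lay between 5.58 and 8.36 in UVB and between 5.39 and 8.36 in control epithelia. Of 14 pigment epithelium genes, 8 were higher in both and by more in experiment 1, and 5 by more in experiment 2. Their signals lay between 6.02 and 10.75 in UVB and between 5.38 and 9.14 in control epithelia. For 13 bipolar cell genes the counts were 3 and 4. The share of all probe sets with such a pattern was not computed. The part of these cells in the Calb2 signal was not tested.

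**Figure D2:**
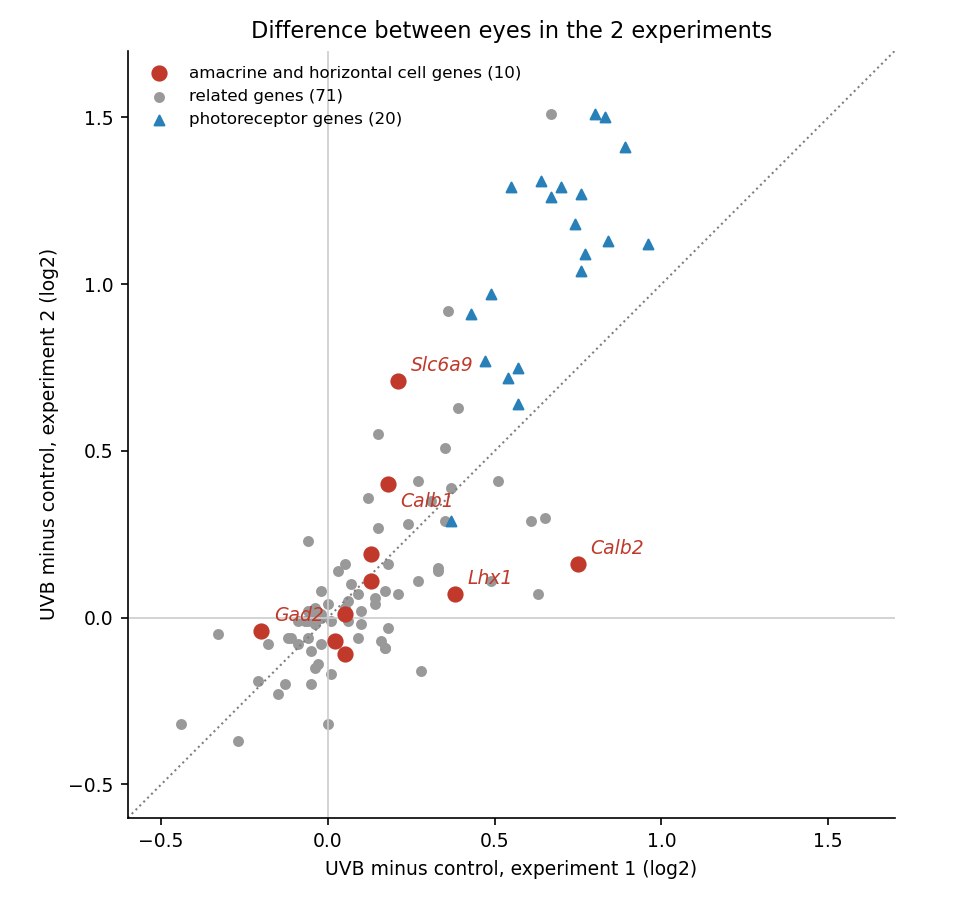
Log2 difference of UVB minus control in experiment 1 (horizontal) and experiment 2 (vertical) for the 10 amacrine and horizontal cell genes, 71 related genes and 20 photoreceptor genes. The dotted line marks equal differences. Slc6a9 and Calb1 lie above it with 19 of the 20 photoreceptor genes, and Calb2 and Lhx1 below it.

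Of the transcription factors, Tfap2b and Onecut1 had small differences that were alike in both experiments. Tfap2b encodes AP-2β, which acts in the development of amacrine and horizontal cells and is also used by tissues of the front of the eye. Its log2 signals were 6.64 and 6.67 in UVB epithelia, against 6.51 and 6.48 in control epithelia. The log2 difference of 0.16 (standard error 0.0195), or 1.12-fold, was 0.13 in experiment 1 and 0.19 in experiment 2. Tfap2b passed an adjusted p of 0.05 in limma (0.0364), but not with the block (0.357), nor after quantile normalization (0.0557) or median centring of the arrays (0.054). Without any 1 of the arrays its adjusted p was 0.25 or above.

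Onecut1 encodes a cut-domain homeobox factor needed to form horizontal cells. Its signals were 6.76 and 6.75 in UVB epithelia and 6.63 and 6.64 in control epithelia. This was the narrowest spread within groups among the 10 genes, with an SD of 0.00707 in each. The experiments had been set to a common level, so that this spread does not measure how well they agree in level. The log2 difference of 0.12 (standard error 0.00988), or 1.09-fold, was called in limma (adjusted p = 0.025), but not with the block (0.357), and without any 1 of the arrays its adjusted p was 0.25 or above. Lhx1, a LIM-homeobox factor that positions horizontal cells, had signals of 6.24 and 6.09 in UVB epithelia, against 5.86 and 6.02 in control epithelia. The groups were separate, by 0.38 in experiment 1 and by 0.07 in experiment 2. Its mean log2 difference of 0.225 (standard error 0.0925) was not called (adjusted p = 0.2).

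Chat encodes choline acetyltransferase, which makes acetylcholine in starburst amacrine cells. Its signals were 5.98 and 5.90 in UVB and 5.93 and 6.01 in control epithelia, so that the groups overlap and the sign differs between the experiments (0.05 and −0.11). The log2 difference was −0.03 (standard error 0.0482, adjusted p = 0.687). Slc18a3, the vesicular acetylcholine transporter, lies within the Chat gene in the GRCm38.p6 assembly. It had signals of 7.05 and 6.92 in UVB and of 6.88 and 7.01 in control epithelia, again overlapping, with a log2 difference of 0.04 (adjusted p = 0.739).

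**Figure D3:**
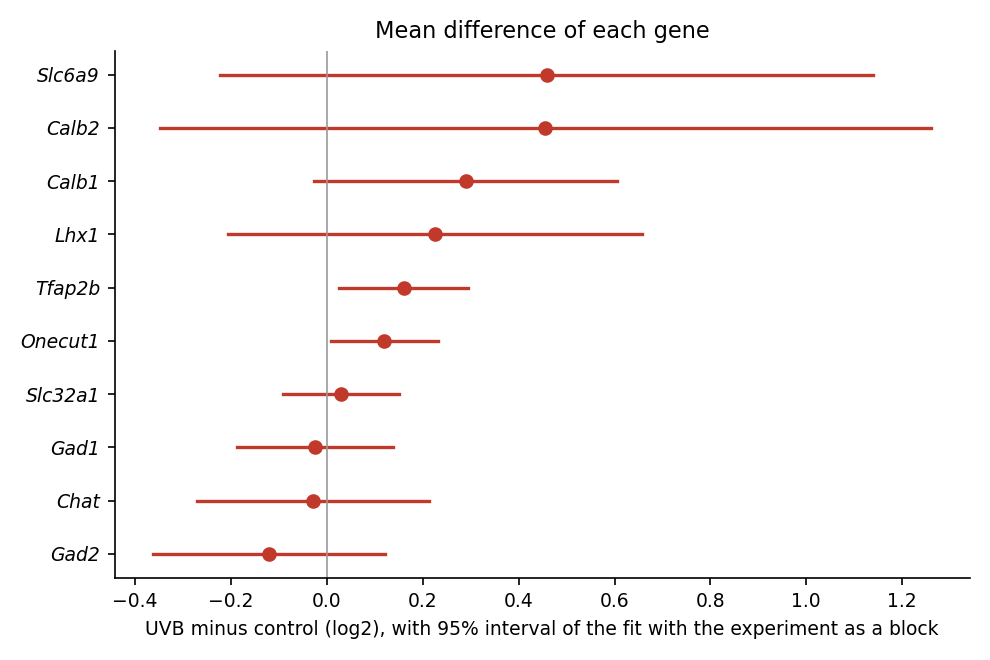
Mean log2 difference of UVB minus control for each of the 10 genes, with the 95% interval from the limma fit with the experiment as a block. The intervals of Tfap2b and Onecut1 do not include 0, and those of Slc6a9 and Calb2 reach from below 0 to above 1.

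Because the study names the homeobox factor Otx2, the 250 bases before annotated starts of these genes were searched for TAATCC on both strands. Factors of the Otx and Crx type prefer this core sequence. The RefSeq table held 10 windows for 8 of the 10 genes, and Calb1 and Calb2 were not among them. Of these windows, 1 held the sequence, that of Gad1, compared with 6.25% of 32851 windows of all genes. The windows of Gad1 and of the first start of Slc6a9 are shown because the first has the match, with a difference of −0.025, and the second has none, with the largest difference of the 10 genes. Slc6a9 has 2 further starts, whose windows held no match either. Both windows are from GRCm38.p6 on the plus strand, and each precedes a start annotated for its gene. For Gad1 this is not the outer end of the gene, whose span begins at 70561303, so that the window lies inside the span. The windows of Gad2, Slc32a1 and Tfap2b likewise lie inside the spans of their genes. Capitals mark GGATTA, the reverse complement of TAATCC, which begins 203 bases before the start used for Gad1. A match is a description of the letters and does not show that a factor binds. A window without a match does not show that none acts on the gene, and an effect of Otx2 on these genes was not tested.
Gad1, chr2:70561879-70562128: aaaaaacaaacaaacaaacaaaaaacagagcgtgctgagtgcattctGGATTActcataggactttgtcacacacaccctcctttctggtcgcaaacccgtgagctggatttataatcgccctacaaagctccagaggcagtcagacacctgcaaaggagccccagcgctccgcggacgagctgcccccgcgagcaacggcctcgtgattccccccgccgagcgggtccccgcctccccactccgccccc
Slc6a9, chr4:117835008-117835257: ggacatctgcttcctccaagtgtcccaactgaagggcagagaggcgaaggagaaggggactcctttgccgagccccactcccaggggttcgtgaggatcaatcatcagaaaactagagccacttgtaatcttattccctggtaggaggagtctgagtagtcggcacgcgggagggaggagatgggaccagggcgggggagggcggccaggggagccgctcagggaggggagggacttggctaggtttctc

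Related genes of amacrine and horizontal cells gave calls in both directions. Of 77 listed genes, 71 had a probe set of their own, and 11 of them were called higher and 7 lower in limma. In the fit with the block, 0 were called. Of all probe sets, 6.62% were called higher and 11% lower without the block, which is the background for the lists below too. The median log2 difference of the 71 genes was 0.04, and 4 of them (Isl1, Nefl, Nefm and Prox1) also stand in lists of other cells. Of 18 measured receptors for GABA and glycine, 7 were higher and 1 was lower. Gabrr1, a ρ subunit of retinal GABA receptors, had log2 signals of 8.73 and 8.85 in UVB epithelia, against 8.34 and 8.22 in control epithelia (log2 difference 0.51, adjusted p = 0.0432). Of the other ρ subunits, Gabrr2 was called higher (log2 difference 0.32) and Gabrr3 was the receptor gene called lower (−0.19, adjusted p = 0.0396). Glra1, a ligand-binding subunit of glycine receptors, had signals of 6.76 and 6.71 in UVB epithelia and of 6.25 and 6.30 in control epithelia (log2 difference 0.46, adjusted p = 0.0221). Gabrb2, a GABA receptor subunit, differed by 0.38 and Glrb, the β subunit of glycine receptors, by 0.33. In the retina such receptors sit on bipolar and ganglion cells as well as on amacrine cells, so that this list is not particular to the interneurons.

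Among 6 genes of GABA and glycine transport and breakdown, Slc6a11, a GABA transporter, was higher (8.18 and 8.26 in UVB, against 7.83 and 7.75 in control epithelia). Aldh5a1, which acts in GABA breakdown, was lower by 0.085 on the log2 scale. Slc6a13 had the widest difference of these 6 genes and was named after its value was seen. It differed by 0.36 in experiment 1 and by 0.92 in experiment 2, and was not called (log2 difference 0.64, limma's adjusted p = 0.103). Of 20 genes of acetylcholine, dopamine and neuropeptides, 1 was higher and 2 were lower. Npy, which encodes neuropeptide Y, had signals of 6.80 and 6.86 in UVB epithelia, against 7.24 and 7.18 in control epithelia (log2 difference −0.38, adjusted p = 0.0287). Sst, which encodes somatostatin, had a log2 difference of −0.20, and Tac1, the precursor of substance P, one of 0.17.

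Of 18 amacrine transcription factors, 2 were higher and 1 was lower. Neurod4, a basic helix-loop-helix factor of amacrine and bipolar cells, differed by 0.34, Nr4a2, a nuclear receptor, by 0.08 and Ebf1, an early B-cell factor, by −0.165. The widest difference in this list, chosen after its value was seen, was that of Neurod1, which photoreceptors also use. Its signals were 8.37 and 8.79 in UVB epithelia, against 7.70 and 7.28 in control epithelia, and it was not called. Of 9 further horizontal cell genes, 0 were higher and 2 were lower. Lhx5, a relative of Lhx1, had signals of 5.57 and 5.52 in UVB epithelia, against 5.84 and 5.89 in control epithelia (log2 difference −0.32, adjusted p = 0.0287). Septin4, a filament-forming GTPase, was lower by 0.06. The median of these 9 genes was −0.06, against −0.02 for all probe sets, 0.12 for Onecut1 and 0.225 for Lhx1. In both experiments, 3 of the 9 were higher and 5 lower (24% and 37.4% of all probe sets). The widest difference was that of Nefl (0.45), and Nefm differed by 0.24. Both were higher in each experiment and not called, and both also stand in the ganglion cell list. Gja10, the connexin of horizontal cells, was at 5.86 and 5.82 in UVB and at 5.72 and 5.76 in control epithelia and was not called.

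The median of 0.14 over the 10 amacrine and horizontal cell genes lay between those of 13 bipolar (0.065) and 14 ganglion cell genes (0.18). That of 12 ciliary body and iris genes, 0.0925, lay as near, so that nearness was not particular to retinal lists. The 71 related genes had a median of 0.04, the cornea and conjunctiva genes of −0.015 and the lens epithelium genes of −0.06. Photoreceptor genes had a median of 0.945, and the smallest difference among the 20 of them, 0.33, exceeded those of 8 of the 10 amacrine and horizontal cell genes. Pigment epithelium genes had a median of 0.82, and Müller glia genes of 0.245. In limma, 12 of 20 photoreceptor and 7 of 14 pigment epithelium genes were called higher at an adjusted p of 0.05, and 0 of either with the block. These medians are descriptions, since the lists were chosen with results known, and no test set one list against another.

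**Figure D4:**
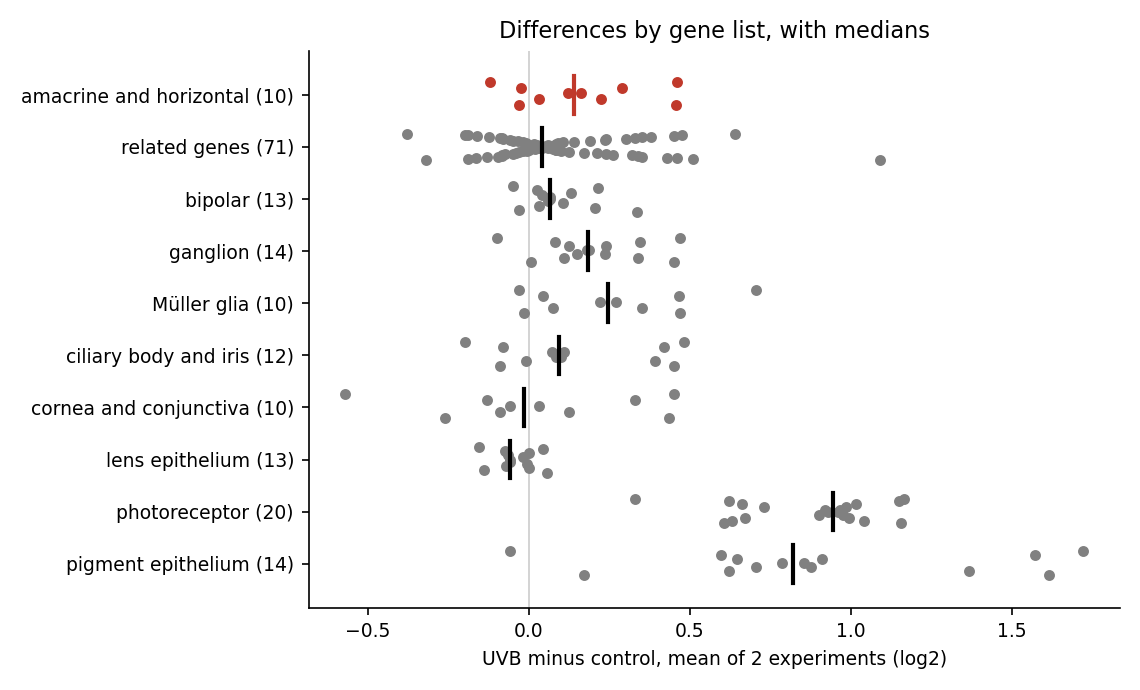
Log2 difference of UVB minus control, as the mean of 2 experiments, for each gene of 10 lists, with the number of measured genes in brackets and a bar at each median. The amacrine and horizontal cell genes span −0.12 to 0.46, whereas photoreceptor genes span 0.33 to 1.17.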

How the data were processed

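RNA of lens epithelia was measured on 4 Affymetrix gene arrays. The methods name a human array, whereas the deposited probe sets match the annotation of a mouse array, which was used. The authors made the deposited log2 signals in Affymetrix Expression Console. Its version and the background, normalization and summary methods are not given in the sources read. Arrays were grouped by their titles, which number experiment 2. Of 28944 probe sets, 21789 had 1 gene symbol, 1621 several and 5534 none. A gene with several probe sets of its own was given by that with the highest mean.

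All probe sets were fitted with limma 3.58.1 in R 4.3.3 (two-sided, Benjamini-Hochberg over all), without a block, as the methods name no paired test, and with the experiment as a replicate block, since both eyes came from the same mice. The fits have 2 and 1 residual degrees of freedom. Around the group means, same-numbered arrays correlated at −0.998, which the equal experiment sums produce. The fits were tested on simulated data with independent noise on each array. These data lacked the equal experiment sums, so that the calls under such sums were not tested. The number of arrays limits the precision, and p-values measure the spread between these arrays.

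The genes and lists were chosen with earlier results of these data known. Named are all 10 genes, up to 4 called genes per related list, and up to 2 marker genes per other list with the widest differences. Other genes are given as background, or were chosen after their values were seen. Alternatives were other normalizations, variance models and filters, the methods' t-test, the mean of a gene's probe sets and leaving out each array. Promoter windows were from the RefSeq table of GRCm38.p6. The human samples and cell line experiments were not analysed here.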

Additional observations from a re-analysis of the deposited data

How the results depend on the processing

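The count of amacrine and horizontal cell genes called higher was 2 on the deposited values. It was 0 with the experiment as a replicate block, 1 with quantile normalization, 1 with each array centred on its median, 1 in the methods' t-test, 0 when probe sets at or below the median level were left out, and 0 to 0 when 1 array was left out. The genes called lower and those past the study's thresholds stayed at 0 throughout. The median log2 difference moved to 0.455 when probe sets at or below the median level were left out, where 3 of the 10 genes were left, and under the other alternatives it moved by less than its spread between experiments. Among related genes, 11 were higher and 7 lower on the deposited values. There were 0 and 0 with the replicate block, and 5 and 3 in the methods' t-test. With the same filter there were 4 and 2, but it also removes called genes of these lists. With the 75th percentiles set equal, 4 were lower. Chat had a log2 difference of 0.01 when either array of experiment 2 was left out, and −0.07 when either array of experiment 1 was. Gad1 came to 0 without the control array of experiment 2, and the directions of the other 8 genes stayed as they were under each alternative. The cause of these changes was not tested, beyond the fewer arrays or probe sets that leaving some out entails. The replicate block left 0 calls in every list of other cells too, and 0 among all probe sets, of which 1915 were called higher and 3184 lower without it.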
